A study of Mus musculus with 9 samples.

Results

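Transcripts of the nuclear-encoded subunits of the respiratory chain were measured in mouse livers that lacked Atg7, a gene needed for autophagy, and in livers that lacked Atg7 and also carried a mutated p62. The subunits were taken by symbol: names that start with Nduf followed by a, b, c, s or v and a digit, Sdha to Sdhd, names that start with Uqcr, Cox4 to Cox8, and names that start with Atp5. Of 24411 genes in the count table, 84 had such a symbol, with 37 of complex I, 4 of complex II, 8 of complex III, 18 of complex IV and 17 of complex V. Of these 84 genes, 76 passed the filter on low counts, and the other 8, mostly isoforms of muscle and other tissues, are given by their counts. The counts of subunits below include Atp5s and Atp5sl, which carry such a name but are not subunits. Ndufa4, now placed in complex IV, is counted with complex I by its name. RNA of 9 livers of 3-month-old mice on a C57BL/6 background was sequenced, with 3 livers in each of 3 groups. Every mouse carried floxed Atg7 on both copies. The group called cont. had no Cre recombinase. The Atg7-KO livers had Cre under the albumin promoter (Alb-Cre), so that the deletion was directed to hepatocytes and not to the other cells of the liver. The S351A livers had Alb-Cre and in addition the p62 S351A change on both copies, which weakens the binding of p62 to KEAP1. For S351A replicates 2 and 3 the genotype entry named a different position in p62 than the title, and the titles were followed.

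The respiratory chain sits in the inner membrane of mitochondria. Complexes I and II take electrons from NADH and succinate, complex III passes them on to cytochrome c, and complex IV hands them to oxygen. Complexes I, III and IV pump protons, and complex V, the ATP synthase, lets the protons flow back through a rotating ring and makes ATP. A few central subunits are coded by mitochondrial DNA and were not analysed here, and the many others, described below, are coded in the nucleus, made in the cytosol and imported. Transcription factors known to act on promoters of these genes include NRF1, the GABPA and GABPB1 pair, ERRA and YY1, with coactivators of the PGC-1 family. NRF1 is a different protein from NRF2 (Nfe2l2), the factor that KEAP1 holds back and that the p62 change was made to address.

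Libraries held between 713835 and 15426566 counts. Those of S351A held between 713835 and 792366 and each was smaller than every library of the other groups, so that depth and the p62 change cannot be told apart. Levels are given in CPM, in which a count is divided by the TMM-scaled size of its library. On that scale 3 counts were worth between 0.267 and 3.70 CPM. Atg7 itself stood at 44.8, 57.3 and 42.1 CPM in cont., at 29.9, 27.8 and 28.2 in Atg7-KO and at 21.7, 24.7 and 22.1 in S351A. Its log2 fold change in Atg7-KO was -0.74 (SE 0.19, adjusted p = 0.00757), and counts over the whole gene do not show whether the deleted part is absent. A gene was called lower or higher when its p-value, adjusted over all 11199 genes tested, was under 0.05 and its fold change above 1.5.

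Subunits of all 5 complexes fell in Atg7-KO livers. Of the 76 tested, 60 fell (78.9%) and 0 rose, where 18.1% of all genes tested were called lower and 19.9% higher. The median log2 fold change over the 76 was -1.14, a level 2.20-fold lower, and that over all genes tested was -0.03. At an unadjusted p under 0.05 the counts were 67 lower and 0 higher, beside 2640 lower and 2678 higher among the 11199 genes tested. In 61 subunits (80.3%) every Atg7-KO library lay below every cont. library, as it did in 24.9% of all genes. The subunits together took 14942, 20119 and 21141 CPM in cont., 7833, 8935 and 9332 in Atg7-KO and 8128, 7812 and 9357 in S351A, so the sums of the groups did not overlap between cont. and the other 2 groups.

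S351A livers were low too. Against cont., 58 of the 76 subunits fell (76.3%) and 0 rose, where 13.0% of all genes were called lower and 15.6% higher. Their median log2 fold change was -1.19, or 2.28-fold lower, beside -0.03 over all genes. In 55 subunits (72.4%) the S351A libraries all lay below the cont. libraries, beside 18.4% of all genes. Both comparisons used the same 3 cont. libraries, so they are not independent of each other.

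**Figure D1:**
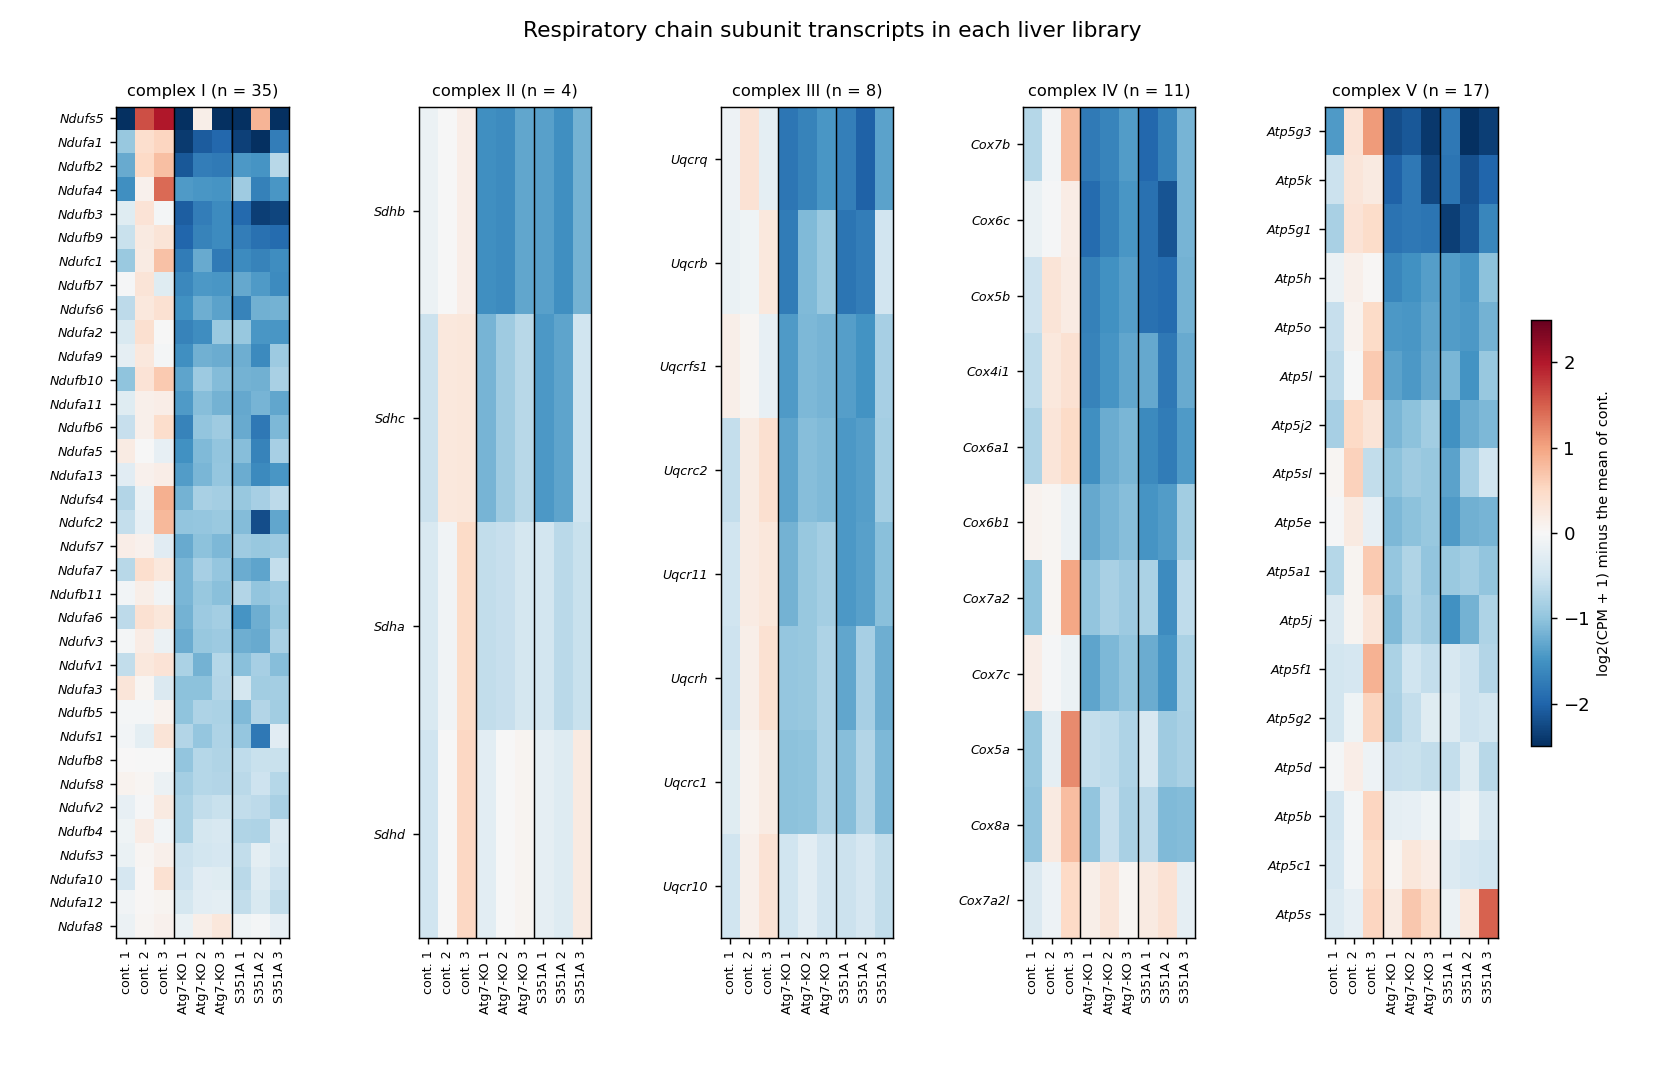
Heat map of 75 of the 76 tested subunits, in rows ordered by complex, in the 9 libraries, in columns. Colour gives log2(CPM + 1) minus the mean of the cont. libraries, and most rows are blue (lower) in all 6 libraries of Atg7-KO and S351A, while cont. replicate 1 is bluer than the other cont. libraries in most rows.

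The cont. libraries were not alike. Relative to the mean of cont., the median subunit stood at -0.44, 0.12 and 0.30 on the log2 scale in cont. replicates 1, 2 and 3, at -1.18, -0.99 and -0.95 in Atg7-KO, and at -1.22, -1.24 and -0.91 in S351A. Replicate 1 had the lowest cont. level for 60 of the 76 subunits and replicate 3 the highest for 50, and in 26 subunits replicate 3 was more than 2 times replicate 1. The median coefficient of variation over the subunits was highest in cont. (28.9%), lower in S351A (17.5%) and lowest in Atg7-KO (10.5%), beside 25.9%, 26.2% and 13.3% over all genes. Without cont. replicate 1, 67 subunits fell in Atg7-KO and 66 in S351A, beside 18.3% and 13.94% of all genes.

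**Figure D2:**
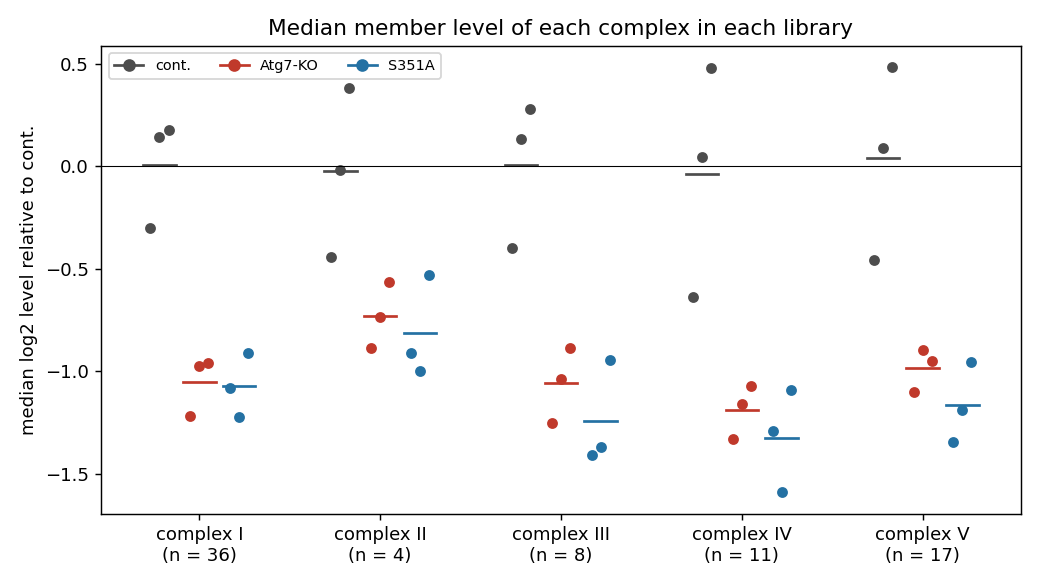
Median log2 level of the tested subunits of each complex, relative to the mean of cont., with 1 point per library. For complexes I, III, IV and V each library of Atg7-KO and S351A lies below the lowest cont. library, at between -1.59 and -0.89, and for complex II they lie between -1.00 and -0.53, also below.

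The size of the fall depended on how libraries were scaled. The 20 genes with most counts took 21.5%, 22.1% and 30.5% of the counts in cont. and between 15.4% and 17.7% in each of the other 6 libraries. With total library size in place of TMM, 29 subunits fell in Atg7-KO and 3 rose (Atp5c1, Cox7a2l and Ndufa8), and over all genes 7.15% were then called lower and 38.25% higher, with the all-gene median at 0.51 and that of the subunits at -0.58. In S351A 33 fell under that scaling, beside 4.57% of all genes lower and 31.23% higher.

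Marker genes of the cell types of the liver differed between the groups as well. The 7 hepatocyte markers summed to 47673 to 107583 CPM in cont., 31469 to 38752 in Atg7-KO and 29695 to 44136 in S351A, and 6 of the 7 fell in both comparisons. Hnf4a, the hepatocyte factor, was the exception, and none of the 7 was at 0. Alb (albumin) stood at 28230, 70836 and 66246 CPM in cont., and in that group replicate 1 was thus low for albumin as well as for the subunits. Ductular cell markers summed to 74.1 to 124 CPM in cont., 867 to 1265 in Atg7-KO and 783 to 1264 in S351A, with 7 of 7 tested higher in each. Stellate cell markers summed to 94.998 to 199 CPM in cont., 818 to 979 in Atg7-KO and 597 to 810 in S351A, with 5 of 8 higher in each, and macrophage markers to 223 to 335, 492 to 602 and 408 to 423 CPM, with 9 and 7 of 11 higher. Lymphocyte markers summed to 3.79 to 16.9 CPM in cont., 42.8 to 58.2 in Atg7-KO and 29.4 to 36.5 in S351A, with 2 and 1 of 2 tested higher. Endothelial markers summed to 193 to 359, 276 to 324 and 266 to 296 CPM, with 2 of 7 lower and 1 higher in Atg7-KO and 1 higher in S351A. Other markers were lower beside the subunits. Erythroid markers summed to 320 to 892 CPM in cont., 92.3 to 203 in Atg7-KO and 149 to 216 in S351A, with 2 of 3 tested lower in each and Hba-a1 at 0 in every library. Brown fat markers summed to 877, 17.8 and 649 CPM in cont., at most 7.37 in Atg7-KO and at most 38.8 in S351A. Of these, Ucp1 and Cidea had at most 2 counts in any library, and nearly all of the sum was Elovl3, which liver makes as well and which was called lower in both. The 6 skeletal muscle markers summed to at most 5.24 CPM in any library, with Myh1 at 0 in all, and none could be tested. In bulk liver, fewer hepatocytes and less RNA of a gene per hepatocyte cannot be told apart, and the part of cell makeup in the subunit levels was not tested.

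**Figure D3:**
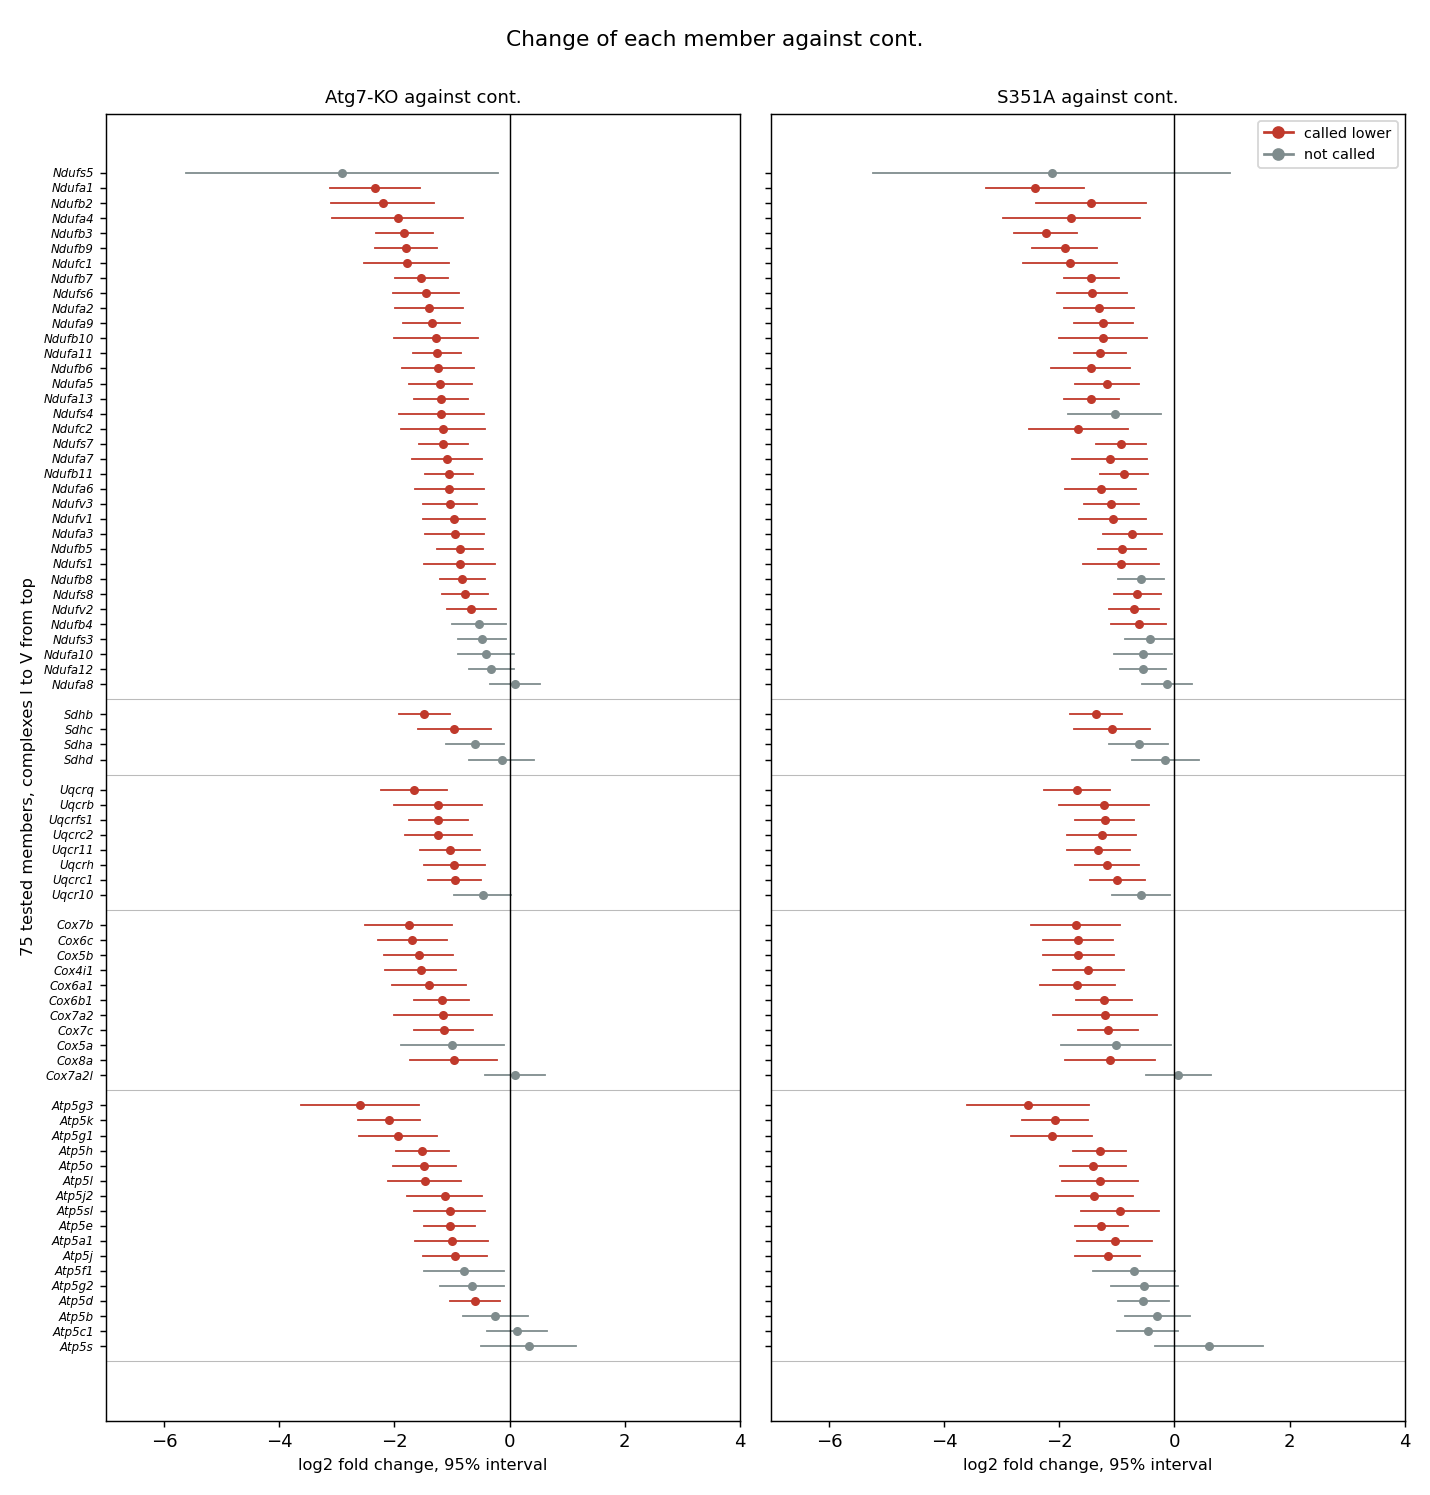
Log2 fold change of 75 of the 76 tested subunits in Atg7-KO against cont. (left) and S351A against cont. (right), grouped by complex, with 95% intervals. Red points were called lower (59 and 57 of the 75 drawn), and no point was called higher.

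The 300 bases around the start of each gene in RefSeq (mouse GRCm38.p6, 250 before and 50 after) were searched on both strands for the letters that known regulators prefer. A window was found for 69 of the 84 subunits, 66 by symbol and 3 by synonym, and for 27025 genes in all. Those 27025 include genes that were not tested here, so shares of all windows are not shares of the genes tested. NRF1 (GCGCANGCG) had a match in 20 subunit windows (29.0%) and in 7.03% of all windows. For GABPA (CCGGAAG) the counts were 16 (23.2%) and 9.93%, for ERRA (TCAAGGTCA) 2 (2.90%) and 0.466%, and for YY1 (AAGATGGCG) 8 (11.6%) and 1.64%. The antioxidant response letters that NRF2 binds (TGACNNNGC) were in 9 subunit windows (13.0%) and in 14.0% of all. At least 1 of the 5 was in 41 (59.4%) of the subunit windows and in 28.2% of all, and no match of one overlapped a match of another. Starts in RefSeq and in GENCODE, which gives the gene positions below, need not be the same base. The promoters below are shown for the called subunit of each complex with the largest fall in Atg7-KO among those with a match in the bases printed, and for Ndufa8, the subunit with a match and the smallest change. Each runs 5′ to 3′ on the gene's strand up to base 30 after the RefSeq start, and capitals mark the matches.
Ndufa1 (complex I, chrX:37191209-37191488, - strand, NRF2 letters): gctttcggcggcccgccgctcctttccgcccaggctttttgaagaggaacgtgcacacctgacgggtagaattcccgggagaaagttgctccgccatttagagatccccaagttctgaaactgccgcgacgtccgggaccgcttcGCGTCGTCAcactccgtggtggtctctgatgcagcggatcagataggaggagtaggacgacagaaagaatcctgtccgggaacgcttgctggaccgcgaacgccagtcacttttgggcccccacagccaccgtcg
Sdhb (complex II, chr4:140961021-140961300, + strand, GABPA letters): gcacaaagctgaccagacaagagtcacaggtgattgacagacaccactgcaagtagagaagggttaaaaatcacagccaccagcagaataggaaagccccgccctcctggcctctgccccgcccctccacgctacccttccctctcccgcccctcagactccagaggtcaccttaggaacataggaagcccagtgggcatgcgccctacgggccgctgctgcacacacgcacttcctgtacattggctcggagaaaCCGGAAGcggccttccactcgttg
Uqcr11 (complex III, chr10:80406792-80407071, - strand, GABPA and then NRF1 letters): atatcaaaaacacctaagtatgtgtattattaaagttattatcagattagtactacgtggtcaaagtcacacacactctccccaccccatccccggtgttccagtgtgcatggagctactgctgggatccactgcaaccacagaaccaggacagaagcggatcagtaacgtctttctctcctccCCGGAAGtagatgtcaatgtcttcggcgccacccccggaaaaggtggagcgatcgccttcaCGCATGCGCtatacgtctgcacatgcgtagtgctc
Cox5b (complex IV, chr1:36691237-36691516, + strand, NRF2 letters): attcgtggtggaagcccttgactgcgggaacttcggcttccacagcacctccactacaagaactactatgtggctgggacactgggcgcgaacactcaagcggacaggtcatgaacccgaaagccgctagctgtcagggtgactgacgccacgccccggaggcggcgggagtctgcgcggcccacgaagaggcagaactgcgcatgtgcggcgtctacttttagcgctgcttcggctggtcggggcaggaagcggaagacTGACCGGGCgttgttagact
Atp5g3 (complex V, chr2:73911297-73911576, - strand, ERRA and then NRF1 letters): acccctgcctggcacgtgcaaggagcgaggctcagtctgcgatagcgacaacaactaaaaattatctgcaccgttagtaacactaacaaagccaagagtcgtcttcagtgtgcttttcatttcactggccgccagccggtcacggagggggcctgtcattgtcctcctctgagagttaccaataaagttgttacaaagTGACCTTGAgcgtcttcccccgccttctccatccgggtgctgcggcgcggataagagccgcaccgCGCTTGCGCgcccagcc
Ndufa8 (complex I, chr2:36049309-36049588, - strand, NRF1 letters in 2 places): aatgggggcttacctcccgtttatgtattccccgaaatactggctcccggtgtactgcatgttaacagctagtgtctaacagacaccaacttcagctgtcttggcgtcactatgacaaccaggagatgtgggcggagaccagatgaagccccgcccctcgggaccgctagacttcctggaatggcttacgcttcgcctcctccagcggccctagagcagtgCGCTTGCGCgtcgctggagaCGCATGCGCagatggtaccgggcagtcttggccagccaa

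Subunits with and without the letters fell. Among 49 called subunits with a window, 13 (26.5%) had the NRF1 letters, as had 7 of the 16 (43.8%) that were not called in Atg7-KO. GABPA letters were in 14 of the 49 (28.6%) and in 2 of the 16 (12.5%), and YY1 letters in 8 of the 49 (16.3%) and 0 of the 16. NRF2 letters were in 7 of the 49 (14.3%) and in 2 of the 16 (12.5%). These counts are a description and were not tested. Of the 6 promoters printed, that of Ndufa8 with its pair of NRF1 matches belongs to a subunit at 159, 183 and 191 CPM in cont., while it had 157, 197 and 216 in Atg7-KO, and that of Atp5g3, with 1 NRF1 match, to the subunit of complex V with the largest fall.

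Complex I takes electrons from NADH in its matrix arm and pumps protons through its membrane arm. Of its 36 tested subunits 30 fell in Atg7-KO, with a median of -1.16 on the log2 scale, and 29 in S351A, with a median of -1.14. Among its called subunits the largest fall in Atg7-KO was that of Ndufa1, a small subunit of the membrane arm whose gene lies on the - strand of the X chromosome of mm10. Its level was 61.9, 159 and 173 CPM in cont., 21.9, 27.4 and 29.99 in Atg7-KO and 22.8, 16.03 and 35.5 in S351A. Every library of both other groups lay below the lowest cont. library, which was replicate 1 and stood well under the other 2. The log2 fold change was -2.33 (SE 0.36, adjusted p = 0.000354) in Atg7-KO and -2.42 (SE 0.39, adjusted p = 0.000917) in S351A.

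Other subunits of the membrane arm fell too. Ndufb3 had 130, 204 and 156 CPM in cont., 37.5, 47.8 and 53.6 in Atg7-KO and 41.1, 30.8 and 31.9 in S351A, with no overlap between cont. and either group. Its log2 fold change was -1.83 (SE 0.23, adjusted p = 9.37e-05) in Atg7-KO and -2.24 (SE 0.25, adjusted p = 8.58e-05) in S351A. Ndufb2 had 24.6, 85.0 and 102 CPM in cont., 13.1, 17.5 and 16.8 in Atg7-KO and 21.7, 21.0 and 36.8 in S351A. Here the S351A libraries overlapped the lowest cont. library, and the log2 fold changes were -2.21 (adjusted p = 0.00127) and -1.45 (adjusted p = 0.0263). Among all 19 supernumerary subunits of the membrane arm, those outside the conserved catalytic core, 15 fell in each comparison, with medians of -1.24 and -1.44. The grouping by arm and role was drawn up after the values had been seen.

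In the matrix arm, of the 7 core subunits, which hold the flavin and the iron-sulfur clusters, 6 fell in each comparison, with medians of -0.86 and -0.93. In Atg7-KO the called log2 fold changes included -1.15 for Ndufs7 and -0.97 for Ndufv1, which binds NADH. Ndufs3 was the core subunit not called, at -0.48 (adjusted p = 0.0643). The 9 supernumerary subunits of the matrix arm gave 8 and 7 calls, with medians of -1.18 and -1.16. For all 7 core subunits the 3 libraries of Atg7-KO, and the 3 of S351A, lay below the 3 of cont. The same held for 24.9% and 18.4% of all genes.

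The subunits of complex I with the highest mean CPM over all 9 libraries were Ndufa3, Ndufb4 and Ndufb11, all of the membrane arm. Ndufa3 had 410, 344 and 256 CPM in cont., against 161, 161 and 199 in Atg7-KO (log2 fold change -0.95, SE 0.24, adjusted p = 0.00708), with 244, 180 and 184 in S351A (-0.73, adjusted p = 0.0376). In this gene cont. replicate 1 was the highest of the cont. libraries, not the lowest. Ndufb11 had 284, 331 and 282 CPM in cont., 135, 154 and 144 in Atg7-KO and 180, 150 and 158 in S351A, and its log2 fold changes were -1.05 (SE 0.19, adjusted p = 0.00108) and -0.88 (SE 0.19, adjusted p = 0.00566). Ndufb4 had 277, 341 and 285 CPM in cont., 172, 222 and 228 in Atg7-KO and 177, 175 and 234 in S351A. Its cont. libraries also lay above all 6 others, but it was not called in Atg7-KO (-0.54, adjusted p = 0.0663) and was called in S351A (-0.62, adjusted p = 0.0498). A call in one comparison and not in the other does not show that the genotypes differ, and the direct comparison of Ndufb4 gave -0.09 (adjusted p = 0.972).

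The subunits not called in Atg7-KO were Ndufb4, Ndufs3, Ndufa8, Ndufa10 (-0.41, adjusted p = 0.172), Ndufa12 (-0.32, adjusted p = 0.184) and Ndufs5. Ndufa8 was at 0.09 (adjusted p = 0.746) in Atg7-KO and, with 165, 170 and 153 in S351A, at -0.13 (adjusted p = 0.680) there, and its libraries overlapped between groups. The estimated counts of Ndufs5 were not whole, as arises when reads match several places, and stood at 0, 104.32 and 538.99 in cont., 0, 34.77 and 0 in Atg7-KO and 0, 17.38 and 0 in S351A, so its log2 fold change in Atg7-KO, -2.91 (adjusted p = 0.0841), is uncertain. In Atg7-KO the log2 fold changes of the other called subunits of complex I, with Ndufa4 set apart below, ran from -1.80 for Ndufb9, -1.79 for Ndufc1 and -1.53 for Ndufb7 to -0.67 for Ndufv2, and in S351A from -1.91 for Ndufb9 to -0.64 for Ndufs8. Ndufs4 and Ndufb8, called in Atg7-KO (-1.18 and -0.82), were not called in S351A, at -1.04 (adjusted p = 0.0541) and at -0.58 (adjusted p = 0.0317, under the fold threshold). Genes outside the rule for naming, such as these, were named after their values had been seen.

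Ndufa4 carries a complex I name but is now placed in complex IV. Its levels were 42.9, 136 and 337 CPM in cont., 46.5, 44.9 and 44.5 in Atg7-KO and 67.3, 38.2 and 45.3 in S351A. Its cont. libraries lay far apart, and cont. replicate 1 lay below all 3 Atg7-KO libraries. It was called in both comparisons (log2 fold change -1.94, SE 0.52, adjusted p = 0.0109 and -1.79, SE 0.54, adjusted p = 0.0273) despite that overlap. Its paralog Ndufa4l2 was at 15, 5 and 69 counts in cont., 11, 8 and 7 in Atg7-KO and 0, 0 and 3 in S351A, too few for the test.

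Complex II, succinate dehydrogenase, also works in the citric acid cycle, and 2 of its 4 subunits fell in each comparison. Sdhb, the iron-sulfur subunit, lies at chr4:140961203-140979193 of mm10 on the + strand. Its levels were 295, 324 and 371 CPM in cont., 112, 110 and 133 in Atg7-KO and 128, 112 and 145 in S351A. All 6 libraries lay at under 150 CPM and all cont. libraries above 290, and the log2 fold changes were -1.48 (SE 0.20, adjusted p = 0.000167) and -1.37 (SE 0.21, adjusted p = 0.000623). Sdhc, a membrane anchor, had 122, 212 and 217 CPM in cont., 79.0, 95.9 and 109 in Atg7-KO and 65.0, 70.3 and 126 in S351A, where 1 S351A library lay above cont. replicate 1. Its log2 fold changes were -0.96 (SE 0.29, adjusted p = 0.0207) and -1.08 (SE 0.30, adjusted p = 0.0187).

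The other 2 subunits of complex II were not called. Sdha, the flavin subunit that oxidises succinate, had 129, 158 and 235 CPM in cont., 111, 112 and 125 in Atg7-KO and 122, 106 and 114 in S351A. The cont. libraries lay above all 6 others, and its log2 fold changes were -0.60 (SE 0.23, adjusted p = 0.0581) and -0.62 (SE 0.24, adjusted p = 0.0677). Sdhd, the other anchor, had 66.3, 93.0 and 134 CPM in cont., 78.3, 93.0 and 98.6 in Atg7-KO and 79.8, 75.2 and 110 in S351A. Here all 3 groups overlapped, with log2 fold changes of -0.14 (adjusted p = 0.713) and -0.16 (adjusted p = 0.696), and the sign turned under total library size (0.42 and 0.35). Whether Sdha and Sdhb, the catalytic partners of the complex, differed in their change was not tested.

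Complex III passes electrons from ubiquinol to cytochrome c, and 7 of its 8 subunits fell in both comparisons, with medians of -1.13 and -1.22. Uqcrq, a small subunit at chr11:53427922-53430831 on the - strand of mm10, had the largest fall of the complex. It had 1111, 1565 and 1023 CPM in cont., 348, 379 and 444 in Atg7-KO and 370, 296 and 482 in S351A. The cont. libraries stood far above the other 6, with log2 fold changes of -1.66 (SE 0.26, adjusted p = 0.000464) and -1.69 (SE 0.27, adjusted p = 0.000764). Uqcrfs1, the Rieske iron-sulfur protein, had 503, 468 and 396 CPM in cont., 170, 206 and 203 in Atg7-KO and 173, 160 and 256 in S351A, with log2 fold changes of -1.24 (SE 0.23, adjusted p = 0.00136) and -1.21 (SE 0.24, adjusted p = 0.00277). For this gene too cont. replicate 1 was the highest library.

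Uqcrb, the subunit that helps to bind ubiquinone, had 297, 308 and 400 CPM in cont., 97.9, 155 and 174 in Atg7-KO and 92.4, 99.9 and 239 in S351A, with S351A replicate 3 more than 2 times the other S351A libraries. Its log2 fold changes were -1.24 (adjusted p = 0.0144) and -1.22 (adjusted p = 0.0224). Uqcr11, whose promoter above holds both GABPA and NRF1 letters, had 181, 295 and 314 CPM in cont., 112, 133 and 142 in Atg7-KO and 93.5, 99.9 and 124 in S351A, with log2 fold changes of -1.03 (SE 0.24, adjusted p = 0.00498) and -1.32 (SE 0.25, adjusted p = 0.00231). The core proteins Uqcrc1 and Uqcrc2 fell in Atg7-KO, to log2 fold changes of -0.95 and -1.23. Uqcr10 was not called, at -0.47 (adjusted p = 0.122) and -0.58 (adjusted p = 0.0811).

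Complex IV, cytochrome c oxidase, gives electrons to oxygen, and several of its subunits have a form for liver and other tissues and a form for heart, muscle or testis. Of its 11 tested subunits 9 fell in each comparison, with medians of -1.18 and -1.23. Cox7c had 993, 871 and 803 CPM in cont., 352, 404 and 449 in Atg7-KO and 372, 319 and 508 in S351A, and fell by 1.15 in both (SE 0.24 in each, adjusted p = 0.00251 and 0.00408). Cox6c had 574, 629 and 730 CPM in cont., 167, 199 and 234 in Atg7-KO and 175, 143 and 287 in S351A, with log2 fold changes of -1.69 (SE 0.28, adjusted p = 0.000551) and -1.68 (SE 0.28, adjusted p = 0.00107). Neither gene had a library of Atg7-KO or S351A within the cont. range.

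Cox7b, at chrX:106015700-106022450 on the + strand of mm10, had the largest fall among the Cox genes. It had 157, 247 and 451 CPM in cont., 75.3, 82.0 and 97.7 in Atg7-KO and 66.2, 80.1 and 115 in S351A. The cont. libraries differed widely from each other, yet all lay above the 6 others, and the log2 fold changes were -1.75 (SE 0.35, adjusted p = 0.00180) and -1.72 (SE 0.36, adjusted p = 0.00391). Cox5b, whose promoter is printed above and which binds zinc, had log2 fold changes of -1.58 and -1.67, both called. The exceptions were Cox5a, at -0.99 (adjusted p = 0.0734) and -1.01 (adjusted p = 0.104), and Cox7a2l.

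Cox7a2l, which joins complexes III and IV into supercomplexes, was not called in either comparison. It had 32.2, 38.1 and 59.4 CPM in cont., 46.3, 51.7 and 43.2 in Atg7-KO and 49.0, 54.2 and 35.5 in S351A. Its groups overlapped fully, at 0.09 (adjusted p = 0.803) and 0.07 (adjusted p = 0.880), with the sign of the S351A value turning when no filter was used. Cox7a2, from which it takes its name, had 48.0, 101 and 192 CPM in cont., 48.8, 55.6 and 51.8 in Atg7-KO and 55.9, 32.1 and 62.5 in S351A. It was called lower (-1.15, SE 0.39, adjusted p = 0.0336 and -1.20, SE 0.41, adjusted p = 0.0459), with cont. replicate 1 below all 3 Atg7-KO libraries.

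**Figure D4:**
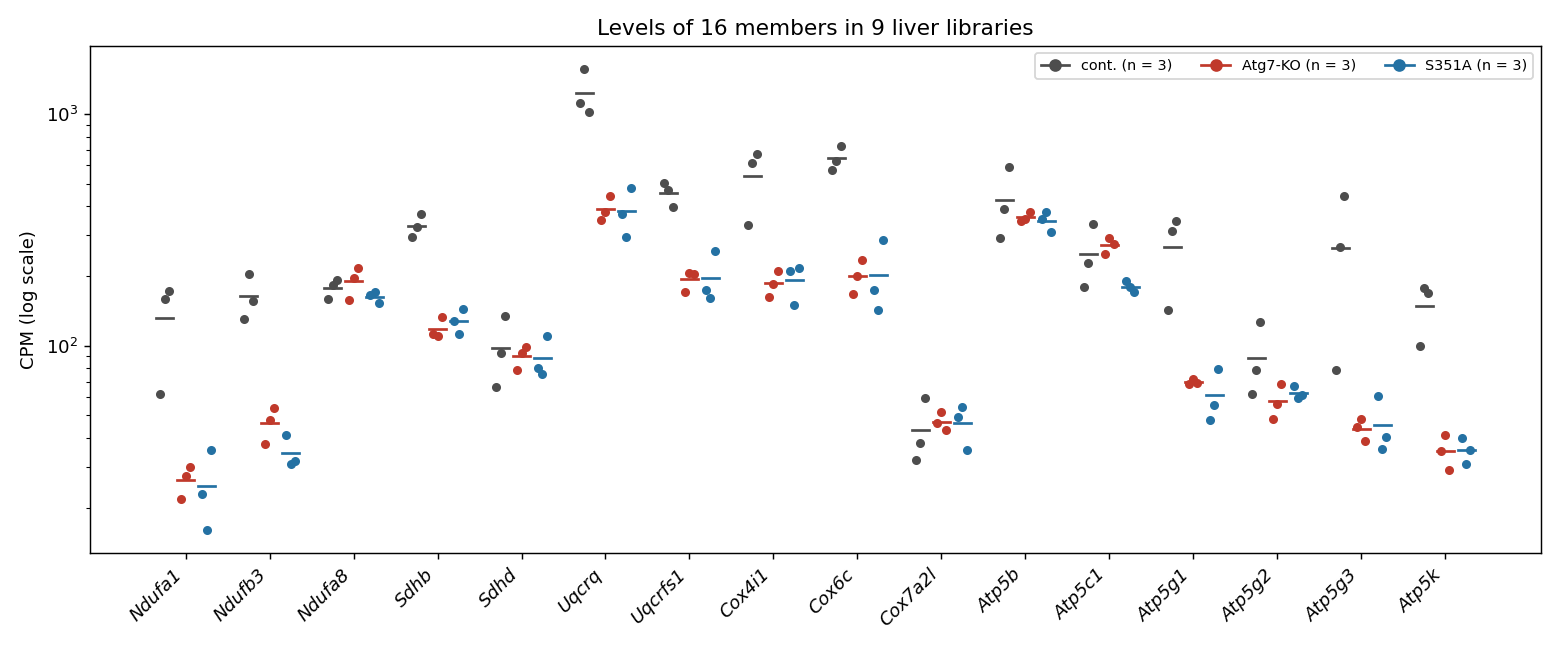
CPM on a log axis in the 9 libraries for 16 subunits, with a point for each library and a line for each group mean. Uqcrq has the highest levels, and Ndufa8, Sdhd, Atp5b, Atp5c1, Atp5g2 and Cox7a2l are subunits whose libraries overlapped those of cont. in both other groups.

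The liver forms of complex IV subunits made up nearly all of the counts. Cox4i1 had 332, 618 and 673 CPM in cont., 162, 185 and 209 in Atg7-KO and 211, 149 and 216 in S351A, with log2 fold changes of -1.54 (SE 0.28, adjusted p = 0.00113) and -1.495 (SE 0.29, adjusted p = 0.00250), while Cox4i2, the form of lung, had at most 5 counts in any library. Cox6a1 had 200, 419 and 476 CPM in cont., 117, 145 and 154 in Atg7-KO and 113, 101 and 127 in S351A (-1.40, adjusted p = 0.00260 and -1.69, adjusted p = 0.00177), and its muscle form Cox6a2 had 3 counts in 1 library and 0 in the other 8. No cont. library of Cox4i1 or Cox6a1 lay within the range of the other groups. Cox6b1 had 516, 505 and 442 CPM in cont., 199, 217 and 231 in Atg7-KO and 175, 185 and 265 in S351A (-1.18, adjusted p = 0.00133 and -1.23, adjusted p = 0.00191), and its testis form Cox6b2 had between 0 and 9 counts.

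Cox8a had 89.7, 208 and 304 CPM in cont., 90.1, 119 and 101 in Atg7-KO and 113, 82.6 and 83.3 in S351A. It was called lower (-0.97, adjusted p = 0.0436 and -1.12, adjusted p = 0.0348), again with cont. replicate 1 below all 3 Atg7-KO libraries. Its muscle form Cox8b had between 0 and 2 counts, Cox8c 0 in all libraries and Cox7b2 1 count in a single library. Cox7a1, the heart and muscle form of Cox7a2, was seen most often of these, with 3, 12 and 45 counts in cont., 14, 6 and 5 in Atg7-KO and 6, 0 and 2 in S351A. At the depth of the S351A libraries, a change in these forms was not detectable.

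Complex V is a motor with a head (F1) that makes ATP, a ring of c subunits that turns in the membrane, and a stalk that holds the head still. Of its 17 tested genes 12 fell in Atg7-KO and 11 in S351A, with medians of -1.04 and -1.16. The 3 genes Atp5g1, Atp5g2 and Atp5g3 code the same mature c subunit with different import sequences, and of these Atp5g1 and Atp5g3 were called lower in both comparisons and Atp5g2 in neither. Whether the 3 genes differed in their change was not tested. Atp5g3, at chr2:73908447-73911326 on the - strand of mm10, had 78.9, 267 and 444 CPM in cont., 44.5, 48.1 and 38.6 in Atg7-KO and 60.5, 35.8 and 40.4 in S351A. No library of the other groups reached the cont. range, wide as it was, and the log2 fold changes were -2.60 (SE 0.47, adjusted p = 0.00103) and -2.54 (SE 0.49, adjusted p = 0.00258).

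Atp5g1 had 142, 314 and 344 CPM in cont., 68.6, 71.6 and 69.1 in Atg7-KO and 47.9, 55.5 and 79.6 in S351A, with log2 fold changes of -1.94 (SE 0.31, adjusted p = 0.000476) and -2.13 (SE 0.32, adjusted p = 0.000633). Atp5g2 had 61.9, 78.3 and 126 CPM in cont., 48.1, 56.0 and 68.6 in Atg7-KO and 67.3, 59.2 and 61.3 in S351A. Its groups overlapped and it was not called, at -0.65 (SE 0.26, adjusted p = 0.0619) and -0.52 (SE 0.27, adjusted p = 0.164). Per kilobase of transcript, the mean level in cont. was 341 CPM for Atp5g3, 139 for Atp5g2 and 100.01 for Atp5g1, with the same order when the longest transcript set the length (306, 118 and 56.5). In Atg7-KO the levels per kilobase were 56.6 for Atp5g3, 89.9 for Atp5g2 and 26.2 for Atp5g1, and in S351A they were 59.0, 97.8 and 22.9. The gene with the highest level per kilobase was thus Atp5g3 in cont. and Atp5g2 in the other groups, a change of order that was not tested.

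The head and central stalk had smaller changes by their median. Of their 5 tested subunits 3 fell in Atg7-KO and 2 in S351A, with medians of -0.59 and -0.54. Atp5b, the catalytic beta subunit, had 291, 391 and 590 CPM in cont., 346, 353 and 378 in Atg7-KO and 351.3, 377 and 309 in S351A. All 6 libraries lay inside the cont. range, and the log2 fold changes were -0.24 (SE 0.26, adjusted p = 0.487) and -0.30 (SE 0.26, adjusted p = 0.421), with the sign turned under total library size. Atp5c1, the gamma subunit of the central stalk, had 180, 228 and 335 CPM in cont., against 249, 293 and 274 in Atg7-KO (0.13, SE 0.24, adjusted p = 0.701). Atp5a1, the alpha subunit that alternates with beta in the head, was called at -1.01 (adjusted p = 0.0169) and -1.04. Atp5e, the epsilon subunit, had 514, 612 and 453 CPM in cont., 240, 257 and 270 in Atg7-KO and 195, 227 and 233 in S351A, with no overlap, with log2 fold changes of -1.04 (SE 0.21, adjusted p = 0.00187) and -1.27 (SE 0.21, adjusted p = 0.00105).

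Atp5h, subunit d of the stalk, had 456, 554 and 517 CPM in cont., 163, 177 and 194 in Atg7-KO and 192, 181 and 248 in S351A. Its cont. libraries lay close together, and its log2 fold changes were -1.52 (SE 0.21, adjusted p = 0.000194) and -1.30 (SE 0.21, adjusted p = 0.00102). Atp5k, subunit e of the membrane part, at chr5:108433244-108434448 on the - strand of mm10, had 99.8, 178 and 170 CPM in cont., 35.0, 41.0 and 29.1 in Atg7-KO and 39.9, 30.8 and 35.5 in S351A. The cont. libraries stood far above the other 6, and its log2 fold changes were -2.09 (SE 0.25, adjusted p = 6.11e-05) and -2.08 (SE 0.27, adjusted p = 0.000215). Of the 4 stalk subunits 3 fell in each comparison (medians -1.21 and -1.23), and of the 3 small membrane subunits all did (medians -1.47 and -1.39). Atp5o, Atp5l and Atp5j2 had log2 fold changes of -1.48, -1.47 and -1.13 in Atg7-KO and -1.41, -1.29 and -1.39 in S351A, all called, while Atp5f1, subunit b of the stalk, was at -0.78 (adjusted p = 0.0711) and -0.70 (adjusted p = 0.130) and was not. Atp5s and Atp5sl carry the name but are not subunits, and were at 0.34 (not called) and -1.04 (called lower) in Atg7-KO.

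Atg7-KO and S351A were compared directly to ask whether the p62 change altered the subunits in livers without Atg7. None of the 76 was called (0 lower and 0 higher, where 0.00893% of all genes were called lower and 0% higher), and DESeq2 and limma-voom also called 0. At an unadjusted p under 0.05 there was 1 lower, Atp5c1, and 0 higher, beside 361 lower and 378 higher among the 11199 genes tested. Atp5c1 had 189, 180 and 170 CPM in S351A and so lay below all 3 Atg7-KO libraries (log2 fold change -0.60, SE 0.24, 95% interval -1.12 to -0.07, adjusted p = 0.736). The median over the 76 was -0.03, beside 0.01 over all genes, with 43 below 0. The 95% intervals included 0 for 75 subunits and lay within 1 log2 unit of 0 for 69, and they reached a median of 0.57 to either side of the estimate. Ndufb2 had the largest difference upward apart from Ndufs5, at 0.75 (95% interval -0.27 to 1.78), and Ndufc2 had the largest downward after Atp5c1, at -0.51 (95% interval -1.41 to 0.38). All 3 S351A libraries lay below all 3 of Atg7-KO for 3 subunits (Atp5c1, Ndufc2 and Atp5e), beside 9.23% of all genes, and above them for 4 (Ndufb2, Ndufb8, Ndufs7 and Ndufs8), beside 7.67%. Differences of a size inside such intervals were not detectable with 3 livers a group and the shallow S351A libraries. The spread behind these intervals was estimated over all 9 libraries, so the wide spread of cont. entered it as well.

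**Figure D5:**
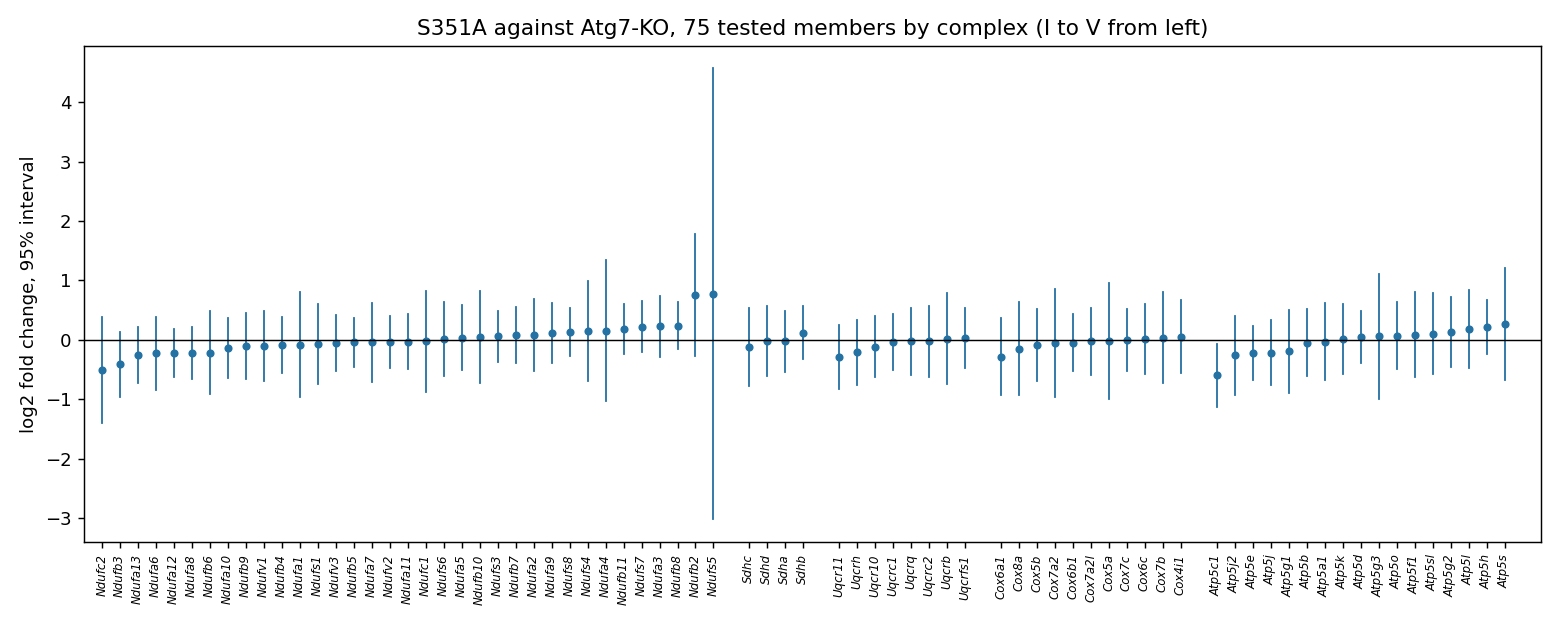
Log2 fold change of S351A against Atg7-KO for 75 of the 76 tested subunits with 95% intervals. All intervals but that of Atp5c1 (-1.12 to -0.07) include 0, and Ndufs5 has the widest, from -3.02 to 4.57.

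Gene length and counting were looked at beside the falls. The subunits have short transcripts, with a median length of 772 bases beside 1744 for all genes tested. Among the 38 shorter ones 33 fell in Atg7-KO (median -1.24), and among the 38 longer ones 27 fell (median -1.00). Of all genes tested, 18.1% were called lower there. Across subunits, which are not independent replicates, Spearman's rho between length and log2 fold change was 0.21, and 0.07 over 10806 genes. With offsets for length and GC content in the fit, 55 subunits fell in Atg7-KO and 49 in S351A, beside 18.43% and 13.41% of all genes. Of the 76, 40 overlapped no other gene and had whole counts within 0.005 in every library. Of these 40, 33 fell in each comparison, with medians of -1.15 and -1.22, beside 18.1% and 13.0% of all genes.

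Lists of genes that work with the chain were counted in the same fit. Of 7 subunits and partners whose symbols the rule left out, 4 fell (57.1%) and 1 rose (14.3%) in each comparison. Of all genes, 18.1% and 13.0% were called lower in the 2 comparisons, and 19.9% and 15.6% higher. Ndufab1, Usmg5 and 1110001J03Rik were called lower in both, while Cyc1 was called in Atg7-KO alone and Cycs in S351A alone, a difference that was not tested. Ndufab1, the acyl carrier protein of complex I, fell by 2.04 (adjusted p = 0.00109) in Atg7-KO. Atpif1, the inhibitor of ATP synthase that acts when the enzyme runs backwards, had 10.7, 15.4 and 18.9 CPM in cont., 58.0, 88.0 and 86.8 in Atg7-KO and 44.5, 48.1 and 31.9 in S351A. It rose in both, by 2.30 (SE 0.26, adjusted p = 3.82e-05) and 1.40 (adjusted p = 0.00294), and the S351A libraries lay between the other groups (S351A against Atg7-KO -0.90, 95% interval -1.46 to -0.33, adjusted p = 0.523).

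Of 43 tested assembly factors of the complexes 7 fell and 1 rose in Atg7-KO, with a median of -0.33, and 6 fell in S351A. The lower calls were 16.3% and 14.0% of the list, near the 18.1% and 13.0% of all genes, and the higher call in Atg7-KO was 2.33% beside 19.9%. Sco2, a copper chaperone of complex IV, had the largest change of those called. It had 356, 585 and 333 CPM in cont., 19.1, 13.9 and 8.63 in Atg7-KO and 25.1, 59.2 and 83.3 in S351A, where all S351A libraries lay above those of Atg7-KO and below those of cont. Its log2 fold change was -4.90 (SE 0.45, adjusted p = 9.87e-06) in Atg7-KO, and -2.93 in S351A, with 1.97 between S351A and Atg7-KO (95% interval 1.05 to 2.90, adjusted p = 0.312). Sco2 overlaps Tymp and Ncaph2, so reads of these genes cannot be told apart without strand. Surf1, another assembly factor of complex IV, fell by 1.21 (adjusted p = 0.00406).

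In other mitochondrial groups the share lower in Atg7-KO was nearer to the 18.1% of all genes, and fewer than 19.9% were higher. Of 77 proteins of the mitochondrial ribosome 17 fell (22.1%) and 2 rose (2.60%) in Atg7-KO (median -0.33), with Mrps14 at -1.46. Of 14 enzymes of the citric acid cycle 4 fell (28.6%) and 0 rose (median -0.45), among them Suclg1 at -1.56 and Fh1 at -0.83. Of 23 genes of mitochondrial protein import 4 fell (17.4%) and 1 rose (4.35%, median -0.05), with Tomm7 at -1.37. In S351A the shares lower were 23.4% for the ribosome, 14.3% for the citric acid cycle and 21.7% for import, with 0 higher in each. Beside these, 13.0% of all genes were called lower and 15.6% higher in S351A. The difference between these lists and the subunits was not tested.

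Of 12 regulators 2 fell (16.7%, beside 18.1% of all genes) and 0 rose in Atg7-KO, with a median of -0.33, so that the share lower was near that of all genes. Tfam, which packs mitochondrial DNA, fell (log2 fold change -0.81, adjusted p = 0.0139). Gabpa fell too (-0.89, adjusted p = 0.0332), and its letters stand in the Sdhb and Uqcr11 promoters above. Gabpa, at a mean of 27.4 CPM in cont., overlaps the subunit gene Atp5j, at 415 CPM, which also fell, so reads of the pair cannot be told apart without strand. The coactivator Ppargc1a had 5.68, 21.7 and 8.81 CPM in cont., against 9.67, 15.7 and 19.1 in Atg7-KO, overlapping ranges, and was not called (0.26, SE 0.50, adjusted p = 0.726). Its relative Ppargc1b was at -0.88 (adjusted p = 0.110) and Pprc1 at -0.11. Nrf1 was at -0.16, Esrra at -0.25, Yy1 at 0.25, Gabpb1 at -0.47, Tfb1m at 0.03 and Tfb2m at -0.41, none of them called in Atg7-KO, and Polrmt at -0.56 (adjusted p = 0.0346) missed the fold threshold. In S351A 1 of the 12 fell (8.33%, beside 13.0% of all genes) and 0 rose. That was Tfb2m (-0.70, adjusted p = 0.0444), and neither Tfam (adjusted p = 0.0592) nor Gabpa (adjusted p = 0.114) was called there. With total library size the Atg7-KO values of Pprc1, Nrf1, Esrra, Gabpb1 and Tfb2m turned positive.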

How the data were processed

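Poly(A) RNA of 9 livers was sequenced, and groups were taken from the sample titles. The authors trimmed reads with Trim Galore, mapped them to mm10 with STAR and estimated levels with RSEM, and the deposited expected counts, which are not scaled between libraries, were rounded (4.40% to 7.75% of values were not whole). Versions, annotation and strand setting were not given in the sources used here. Columns named WT, LKO and LKOSA were read as cont., Atg7-KO and S351A. Positions are from GENCODE M21 and promoters from RefSeq.

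Counts were fitted with edgeR 4.0.16 in R 4.3.3: filterByExpr (minimum count 10, minimum total 15), TMM factors, 1 quasi-likelihood model of all 9 libraries with a term per group, F tests, and Benjamini-Hochberg adjustment over 11199 genes. Calls needed an adjusted p under 0.05 and a fold above 1.5. The SE is the log2 fold change over the square root of F. Medians per library used a prior count of 2. P-values rest on the spread between livers within groups, pooled over all 3 groups, with information shared across genes. The 3 livers of a group are given as biological replicates by the study. Counting floors cover counting error only, since the reads carry no molecular identifiers. The steps were tested on simulated data. A single subunit of complex I is counted in the totals but is not reported here by name.

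Named genes were all of complex II, the 3 subunits of each other complex with the highest mean CPM, the 2 called with the largest change per complex and comparison, tissue isoforms, c ring genes, regulators, and the 2 largest calls of each other list; others were named after their values had been seen. The members and lists were chosen with earlier results of these data known. Alternatives were DESeq2 1.42.0, limma-voom (limma 3.58.1), RLE factors, scaling by the library total with and without the 20 top genes, no filter, a filter of 10 counts in each library, the compared libraries alone, replicate number, sex, length and GC content, thinning, other fold thresholds, a prior count of 0.5, the longest transcript as length, and each library left out.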

Additional observations from a re-analysis of the deposited data

How the results depend on the processing

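Of the 60 subunits that fell in Atg7-KO, 28 were called under every alternative, and of the 58 in S351A 33, and none of them changed sign. Total library size gave 29 lower and 3 higher (median -0.58) in Atg7-KO and 33 lower (median -0.68) in S351A, and leaving the 20 genes with most counts out of the library size gave 36 (-0.69) and 38 (-0.78), where 8.72% and 5.70% of all genes were called lower and 33.73% and 27.15% higher. Leaving out 1 library gave 45 to 67 calls and medians of -1.32 to -1.01 in Atg7-KO, fewest without Atg7-KO replicate 1, where 12.64% of all genes were called lower, and 44 to 66 calls and medians of -1.39 to -1.07 in S351A, fewest without S351A replicate 2, where 7.51% were. Over these fits 12.64% to 18.3% of all genes were called lower in Atg7-KO and 7.51% to 13.97% in S351A, so the share of all genes moved too. The other alternatives gave 47 to 63 calls in Atg7-KO and 43 to 66 in S351A, of 73 to 83 subunits tested, beside 11.62% to 19.31% and 8.06% to 14.52% of all genes, and S351A against Atg7-KO gave 0 throughout. Same-numbered libraries correlated at -0.041 to 0.306 in their deviations from the group means, 5 of 9 pairs above 0.1 and 4 of 9 libraries best with their own number, so the numbers were not taken to pair livers, and with the replicate block 61 and 59 subunits fell, with medians of -1.04 and -1.17.

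Values that turned sign were all uncalled. In Atg7-KO, total library size and library size without the top 20 genes gave 0.42 and 0.30 for Sdhd, 0.31 and 0.20 for Atp5b, 0.45 and 0.33 for Pprc1, 0.41 and 0.29 for Nrf1 (0.084 when thinned), 0.28 and 0.18 for Esrra, 0.11 and 0.0090 for Tfb2m, 0.14 and 0.028 for Ndufa10 and 0.22 and 0.11 for Ndufa12. Total library size alone gave 0.070 for Gabpb1, 0.054 for Ndufs3 and 0.083 for Uqcr10. Ppargc1a was at -0.067 with sex in the fit, and Tfb1m at -0.021 without the filter, -0.083 with limma-voom and -0.080 with sex. In S351A both scalings gave 0.35 and 0.25 for Sdhd, 0.21 and 0.10 for Atp5b, and 0.36 and 0.26 for Ndufa8 (0.0051 with length and GC content), and total library size gave 0.037 for Atp5c1 and 0.060 for Ndufs3. Cox7a2l was at -0.047 without the filter. Over libraries left out, the ranges that crossed 0 in Atg7-KO were -0.36 to 0.16 for Sdhd, -0.47 to 0.066 for Atp5b, -0.037 to 0.87 for Ppargc1a, -0.18 to 0.38 for Tfb1m, -0.071 to 0.41 for Atp5c1, -0.088 to 0.41 for Cox7a2l and -0.021 to 0.22 for Ndufa8. In S351A they were -0.39 to 0.13 for Sdhd, -0.53 to 0.0078 for Atp5b, -0.10 to 1.03 for Atp5s and -0.12 to 0.38 for Cox7a2l. The cause of these turns was not tested. In S351A, 3 counts were worth up to 3.70 CPM, which limits the isoforms of other tissues.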
